A study of Macaca mulatta with 30 samples.

Results

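A group of 60 genes of DNA repair, sister chromatid cohesion and meiotic recombination was examined on the rhesus macaque GeneChip, an oligonucleotide array that reads 1 signal per probeset. The genes were chosen by symbol alone: every probeset annotated with a single symbol of the RAD, BRCA, Fanconi anemia, XRCC, MSH, MLH, PMS, ERCC, RecQ helicase, SMC, STAG or DNA ligase families, or with the symbol of a synaptonemal complex or other named meiosis gene. Where a gene had several probesets, the brightest on average was used. The 60 genes had 123 probesets, out of 14132 genes and 24956 single-symbol probesets in all.

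RNA came from testis, thymus and pancreas, supplied by the Oregon center, from cerebral cortex, supplied by Yerkes, and from an immortalized fibroblast cell line, supplied by Nebraska. No age, sex or treatment of the animals was given in the sources used here. Each source was a single RNA preparation, and every one of the 3 centers labeled 2 aliquots of it and hybridized each aliquot to its own GeneChip. There were therefore 6 arrays per tissue and 30 in all, and the p-values below describe the spread of labeling and hybridization rather than the spread between animals or cultures. Signals are on the log2 scale, so a difference of 1 is a doubling.

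These genes keep the genome intact in different settings. Cohesin, a ring built on SMC proteins, holds sister chromatids together, and the related condensin ring compacts chromosomes for division. Homologous recombination, the Fanconi anemia pathway and the RecQ helicases repair breaks and crosslinks with a sister or homologous chromosome as template, mostly in cells that replicate their DNA. In meiosis, SPO11 makes programmed breaks, DMC1 acts in strand exchange, the synaptonemal complex pairs the homologs, and meiosis-specific cohesin subunits replace part of the mitotic ring. Nucleotide excision repair and end joining work in nearly all cells.

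The signals were repeatable on these genes. The median absolute difference between the aliquots of a tissue at a center was 0.09 over the 15 pairs, with medians of 0.04 to 0.14. Arrays of 1 tissue correlated at 0.969 or higher over the members, which differ widely in brightness, and the correlation between tissues is not given. The study reported lower data quality for its pancreas arrays than for the other sources, by scaling factors and standard errors, and advised caution with them. Array means ranged over 6.32 to 6.33 for Oregon, 6.34 to 6.38 for Nebraska and 6.89 to 6.92 for Yerkes, so center was a term of the limma model and the overlap of tissues is also given within centers. The tissues carried their own marker genes. All of the 3 neuron and 3 glia markers measured were higher in cerebral cortex, 7 of 7 matrix genes in fibroblast, 5 of 5 acinar enzymes in pancreas, 6 of 6 somatic testis genes in testis and 8 of 8 thymocyte genes in thymus. Of 8 spermatid markers measured, only ZPBP, a sperm acrosome protein, was higher in testis, and the summed linear signal of the 8 was 577.7 to 910.0 on testis arrays, against 449.4 to 1101 on the other arrays. Of 8 spermatogonia markers measured, DAZL and NANOS2 were higher in testis, 2 in cerebral cortex (UCHL1 and FGFR3) and 2 in pancreas (GFRA1 and NANOS3). Their summed linear signal was 1405 to 2064 on testis arrays, against 6913 to 10020 on cerebral cortex, 2698 to 4107 on fibroblast, 1162 to 2205 on pancreas and 704.9 to 1135 on thymus arrays.

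The genes were high in thymus and testis and low in cerebral cortex. The term higher in a tissue is used below for a gene whose 4 contrasts against the other tissues were all positive with an adjusted p under 0.05. By this rule 23 of the 60 members (38.3%) were higher in thymus, where 12.6% of all genes were, and 16 (26.7%) were higher in testis, where 9.71% of all genes were. The testis count was 8 in a model without the center term, for which no share of all genes is given. In fibroblast 4 members (6.67%) were higher, against 16.7% of all genes. Cerebral cortex had 1 member (1.67%, against 13.3% of all genes) and pancreas 1 (1.67%, against 21.2%). The remaining 15 members were higher in no single tissue. In the opposite direction, 19 members (31.7%) were lower in cerebral cortex than in each other tissue, against 12.1% of all genes, and 10 (16.7%) were lower in pancreas, close to the 15.1% of all genes. Only 2 were lower in fibroblast (6.35% of all genes), 2 in thymus (9.31%) and 1 in testis (4.95%). In bulk RNA, fewer cells of a type and less RNA per cell cannot be told apart.

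**Figure D1:**
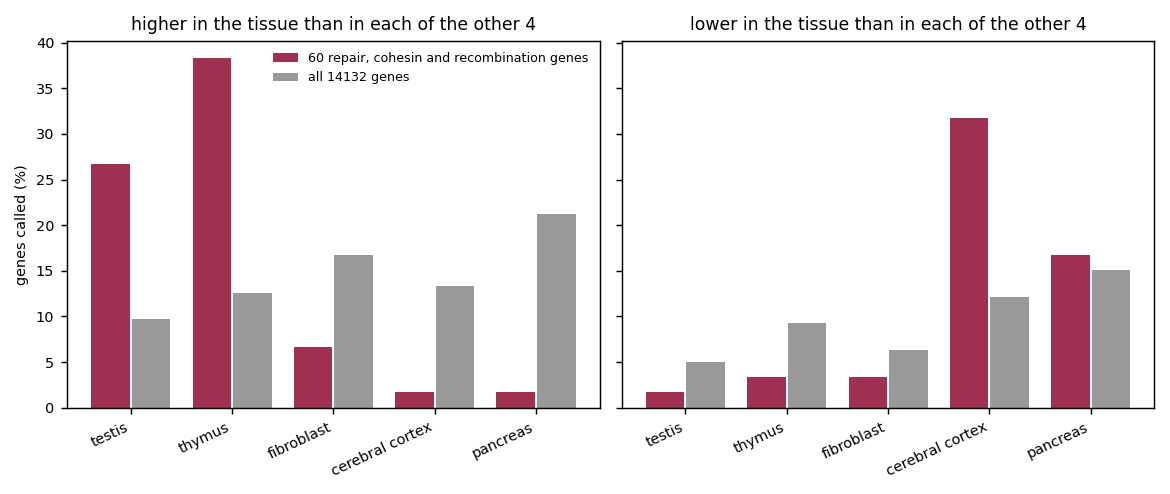
Share of genes called higher (left) and lower (right) in each tissue than in each of the other 4 tissues, in percent, for the 60 members and for all 14132 genes. The members exceed all genes in thymus (38.3% against 12.6%) and testis (26.7% against 9.71%) among the higher calls and in cerebral cortex (31.7% against 12.1%) among the lower calls.

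The same order appeared in the levels. The median of the members' mean signals was 7.46 in thymus and 7.23 in testis, against 7.01 in fibroblast, 6.76 in pancreas and 6.52 in cerebral cortex. Over all genes the corresponding medians lay between 6.97 and 7.09. The range of the 5 tissue means had a median of 1.43 over members and 1.20 over all genes, and 19 members (31.7%) had a range of at least 2, against 24.9% of all genes. The called differences were mostly small. Only 11 of the 45 called members differed from the next tissue by 1 or more. These were 5 members in thymus (3.33% of all genes passed this rule there), 5 in testis (1.97% of all genes) and 1 in cerebral cortex (5.63% of all genes).

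**Figure D2:**
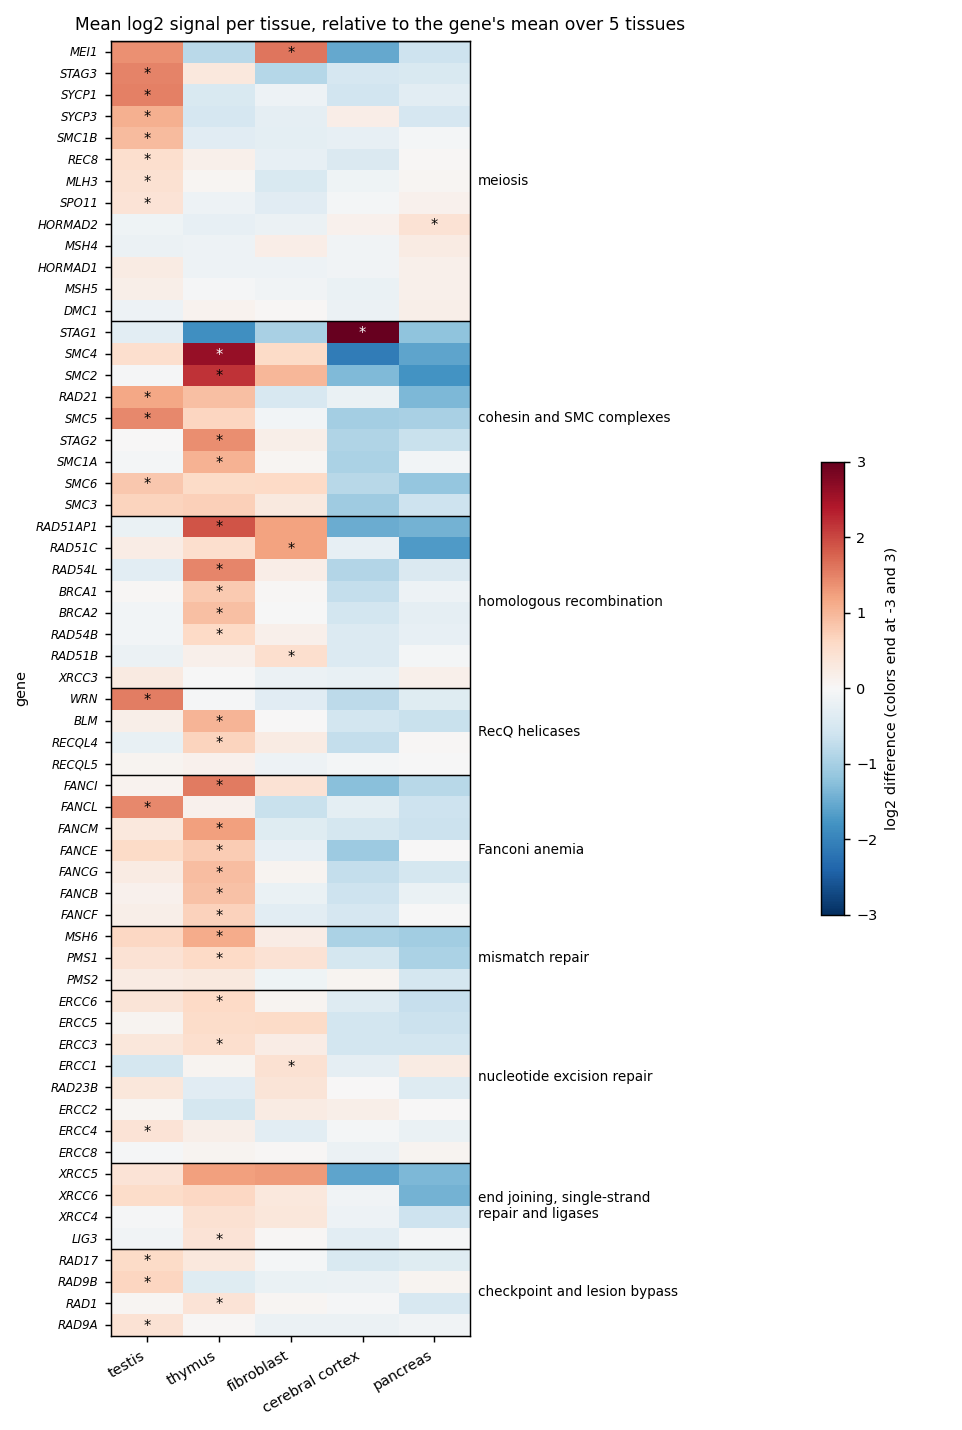
Mean log2 signal of each of the 60 members in 5 tissues (6 arrays each), as the difference from the mean over the 5 tissues, ordered by role. A star marks the tissue where a member was called higher than in each of the other 4, and the color scale ends at -3 and 3, which STAG1 in cerebral cortex exceeds.

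The meiosis genes came first in testis. Of 13 measured, 7 were higher in testis than in every other tissue (SYCP1, STAG3, SMC1B, SYCP3, MLH3, REC8 and SPO11), 1 was higher in fibroblast (MEI1), 1 in pancreas (HORMAD2) and 4 in none (HORMAD1, MSH4, MSH5 and DMC1). None was higher in thymus or in cerebral cortex. SYCP2, the remaining gene of the list, was not analysed here.

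SYCP1 forms the transverse filaments of the synaptonemal complex. Its signal on the 6 testis arrays was 4.94 at the lowest, 5.55 at the median and 5.86 at the highest, against 3.39, 3.75 and 4.37 on the fibroblast arrays, the next highest. Every testis array stood above all 24 others, although SYCP1 was below the array median on all 30 arrays. Testis exceeded fibroblast by 1.66 (SE 0.13, 3.16-fold, adjusted p = 1.49e-12, limma).

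SYCP3, an axial element protein of the same complex, had signals of 6.40, 6.70 and 6.77 (lowest, median, highest) in testis, against 5.55, 5.63 and 6.10 in cerebral cortex. The testis arrays again lay above all others. The difference was 0.88 (SE 0.14, adjusted p = 2.72e-06). In the other 3 tissues the means lay between 5.06 and 5.29.

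The meiotic cohesin subunits were also highest in testis. STAG3, the meiosis-specific partner of the cohesin ring, had signals of 8.41, 8.60 and 9.07 in testis, against 7.27, 7.38 and 7.90 in thymus. Testis did not overlap with any other tissue and exceeded thymus by 1.17 (SE 0.07, 2.25-fold, adjusted p = 2.18e-15). The second STAG3 probeset was also called higher in testis, with means of 7.12 in testis and 6.89 in thymus. Thymus itself exceeded fibroblast, cerebral cortex and pancreas for STAG3.

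SMC1B, the meiotic counterpart of SMC1A, had signals of 6.33, 6.54 and 7.20 in testis, against 5.29, 5.49 and 6.13 in pancreas. No testis array overlapped with another tissue, and the difference was 1.01 (SE 0.08, 2.02-fold, adjusted p = 2.73e-13). The other 4 tissue means lay within 5.37 to 5.66. REC8, the meiotic kleisin that closes the ring, differed less, with 7.06, 7.25 and 7.83 in testis, against 6.66, 6.87 and 7.48 in thymus. Its groups overlapped over all 30 arrays but not within any center, and the difference was 0.37 (SE 0.07, adjusted p = 5.98e-05).

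**Figure D3:**
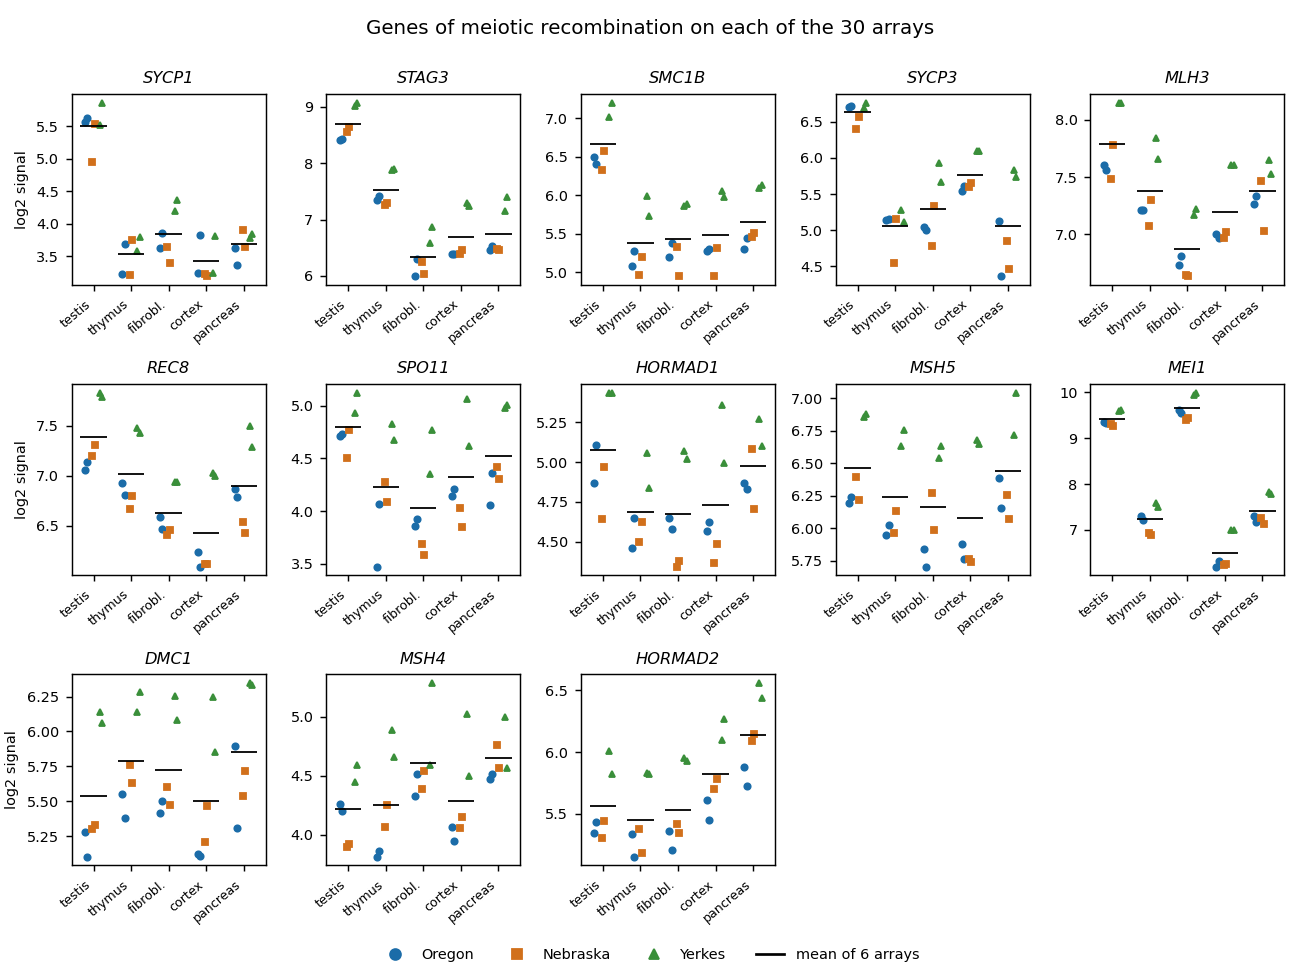
Log2 signal of meiosis genes on each of the 30 arrays (y axis) by tissue (x axis), with the center as color and shape and a line at the mean of 6 arrays. The testis arrays lie apart from all others for SYCP1, SYCP3, STAG3 and SMC1B, while MEI1 is high in both fibroblast and testis.

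The remaining meiosis genes had small differences or none. MLH3, a MutL homolog that acts at crossovers, had signals of 7.48, 7.69 and 8.15 in testis, against 7.07, 7.25 and 7.84 in thymus, a difference of 0.41 (SE 0.07, adjusted p = 8.42e-06). It fell to 0.13 and was not called after quantile normalization of all 30 arrays, and was not called without the center term. The groups overlapped over all arrays and were separate within each center. All 3 MLH3 probesets were called higher in testis, the second with means of 7.63 in testis and 7.02 in thymus.

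SPO11, which makes the breaks that start meiotic recombination, was among the dimmest members, with 4.50, 4.75 and 5.12 in testis, against 4.06, 4.38 and 5.00 in pancreas. It was below the array median on all 30 arrays. The difference of 0.28 (SE 0.11, adjusted p = 0.0268) was separate from the other tissues at 2 of 3 centers. The center values were 0.52 (Oregon), 0.27 (Nebraska) and 0.04 (Yerkes), and the call was lost without the Oregon arrays (0.16), without the Nebraska arrays (0.28), without the second aliquots (0.23), with aliquots averaged (0.28) and without the center term (0.28).

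MEI1, required for meiotic break formation in mouse, differed in its pattern. Its signals were 9.40, 9.58 and 9.99 in fibroblast, against 9.28, 9.35 and 9.62 in testis, while pancreas and thymus averaged 7.41 and 7.23 and cerebral cortex 6.50. Fibroblast and testis overlapped over all arrays and both stood above the other 3 tissues. The difference between them was 0.24 (SE 0.07, adjusted p = 0.00304). It fell to 0.01 and was not called after quantile normalization of all 30 arrays, and the other 3 MEI1 probesets were called higher in pancreas.

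HORMAD2, a protein of unsynapsed chromosome axes, had signals of 5.73, 6.12 and 6.56 in pancreas, against 5.45, 5.74 and 6.27 in cerebral cortex, a difference of 0.32 (SE 0.06, adjusted p = 4.96e-05). It was below the array median on all 30 arrays. The groups overlapped over all arrays and were separate within each center.

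For the other 4 meiosis genes no tissue passed the test. HORMAD1, which acts with HORMAD2, had a median signal of 5.04 in testis (4.64 to 5.44), against 4.98 in pancreas (4.70 to 5.27). DMC1, the meiotic recombinase, had a median of 5.32 in testis (5.10 to 6.14), against 5.81 in pancreas (5.31 to 6.35). MSH4 and MSH5 form the MutS complex of crossovers. MSH4 had a median of 4.23 in testis (3.90 to 4.59), against 4.57 in pancreas (4.47 to 5.00), and MSH5 6.32 in testis (6.19 to 6.88), against 6.32 in pancreas (6.07 to 7.04). HORMAD1, DMC1 and MSH4 were below the array median on all 30 arrays. Single contrasts did pass in them: pancreas exceeded testis by 0.32 for DMC1 (SE 0.08, adjusted p = 0.000775) and by 0.43 for MSH4 (SE 0.12, adjusted p = 0.00142), and testis exceeded thymus by 0.39 for HORMAD1 (SE 0.08, adjusted p = 0.00017). The other 2 MSH4 probesets, of lower mean signal, were highest in testis, and 1 of them was called there, with means of 3.39 in testis and 2.94 in fibroblast.

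Meiosis genes outside the chosen families moved likewise in part. Of 9 measured from a list of 18, 5 were higher in testis and 2 in cerebral cortex. MAEL, a germ cell factor of transposon silencing, averaged 7.97 in testis and 5.88 in cerebral cortex (SD 0.24 and 0.22, n = 6 arrays each). TEX12, of the synaptonemal complex, averaged 6.12 in testis and 4.51 in fibroblast, and TEX14, of germ cell bridges, 7.27 in testis and 6.25 in pancreas. PSMC3IP, a gene of meiotic recombination, averaged 10.76 in cerebral cortex and 9.69 in testis.

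Thymocyte genes were present in the testis RNA at a low level. The summed linear signal of 8 such genes was 1136 to 1691 on testis arrays, against 386.8 to 893.9 on the fibroblast, cerebral cortex and pancreas arrays and 22540 to 31630 on the thymus arrays. Of the 8, 7 were higher in testis than in those 3 tissues and all 8 were lower in testis than in thymus, with differences of -4.52 to -3.70. The part of thymocyte RNA in the testis signals was not tested. The excess of testis over thymus, which the rule requires of a testis call, was 0.24 for SMC6 to 1.97 for SYCP1 over the 16 members called there.

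Cohesin and condensin genes divided among tissues. Of 9 measured, 4 were higher in thymus (SMC4, SMC2, STAG2 and SMC1A), 3 in testis (SMC5, SMC6 and RAD21), 1 in cerebral cortex (STAG1) and 1 in none (SMC3). They had the widest ranges among the role lists, with a median range of 2.48.

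SMC4 is a core subunit of condensin. Its signals were 10.57, 11.09 and 11.14 in thymus, against 8.63, 8.97 and 9.19 in fibroblast, with testis next at a mean of 8.86 and cerebral cortex last at 6.24. No thymus array came within the range of another tissue. The difference was 2.02 (SE 0.06, 4.05-fold, adjusted p = 5.98e-24), the largest of the thymus calls. The 6 SMC4 probesets did not agree, since 3 were higher in thymus and the other 3, of lower mean signal, were higher in cerebral cortex.

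SMC2, the other SMC subunit of condensin, had signals of 9.06, 9.18 and 9.23 in thymus, against 7.69, 8.003 and 8.36 in fibroblast. The thymus arrays lay apart from all others and the difference was 1.18 (SE 0.08, 2.27-fold, adjusted p = 2.58e-14). Testis followed at a mean of 6.96, and the levels in cerebral cortex and pancreas were 5.67 and 5.20. Both condensin genes thus had the order thymus, fibroblast, testis, with cerebral cortex and pancreas far below. For SMC4 the difference between fibroblast and testis was 0.07 (SE 0.06, adjusted p = 0.313) and did not pass.

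STAG2, a subunit of mitotic cohesin, was brightest in thymus at 10.45, 10.51 and 10.76, against 9.06, 9.25 and 9.84 in fibroblast. The thymus arrays did not overlap with others. The difference was 1.22 (SE 0.08, 2.33-fold, adjusted p = 2.58e-14), and all 5 STAG2 probesets were called higher in thymus. SMC1A, a core arm of the cohesin ring, averaged 8.35 in thymus and 7.35 in fibroblast (SD 0.25 and 0.28, n = 6 arrays each), a difference of 0.995 (SE 0.07, adjusted p = 9.84e-14).

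STAG1, the paralog that takes the place of STAG2 in part of the cohesin rings, had the largest range of all 60 members. Its signals were 10.80, 11.00 and 11.21 in cerebral cortex, against 6.10, 6.28 and 6.82 in testis. The cortex arrays stood in the top of the array's signals, at a mean percentile of 99.0, and far above every other array. The difference was 4.64 (SE 0.08, 24.9-fold, adjusted p = 1.57e-29), with 4.56 for Oregon, 4.90 for Nebraska and 4.46 for Yerkes. STAG1 was called lower in thymus, at a mean of 4.81. STAG1 had only 1 single-symbol probeset, so no other probeset of the gene could be set beside it.

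SMC5 and SMC6 form a ring of their own in repair. SMC5 averaged 9.32 in testis and 8.51 in thymus (SD 0.22 and 0.26, n = 6 arrays each), with no overlap and a difference of 0.81 (SE 0.09, adjusted p = 1.04e-09). SMC6 averaged 8.88 in testis and 8.68 in fibroblast, a difference of 0.21 (SE 0.08, adjusted p = 0.0319) in overlapping groups. The SMC6 excess was 0.06 for Oregon, 0.32 for Nebraska and 0.007 for Yerkes, and the testis arrays stood apart at only 1 center. RAD21, the kleisin of mitotic cohesin, averaged 11.41 in testis and 11.15 in thymus and was lowest in pancreas at 8.90. The RAD21 difference between testis and thymus was 0.26 (SE 0.08, adjusted p = 0.0075). The other SMC5 probesets and the second RAD21 probeset were also highest in testis but were not called. For RAD21 the means of that probeset were 11.2 in testis and 11.04 in thymus. For SMC5 the brighter of these averaged 7.40 in testis and 7.22 in thymus. SMC3, the ring's second arm, averaged 10.36 in thymus and 10.32 in testis, a difference of 0.04 (SE 0.10) that did not pass, and both were called higher than the other 3 tissues. Some SMC3 probesets of lower mean signal were called higher in thymus, the brightest of these with means of 9.174 in thymus and 8.605 in testis.

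**Figure D4:**
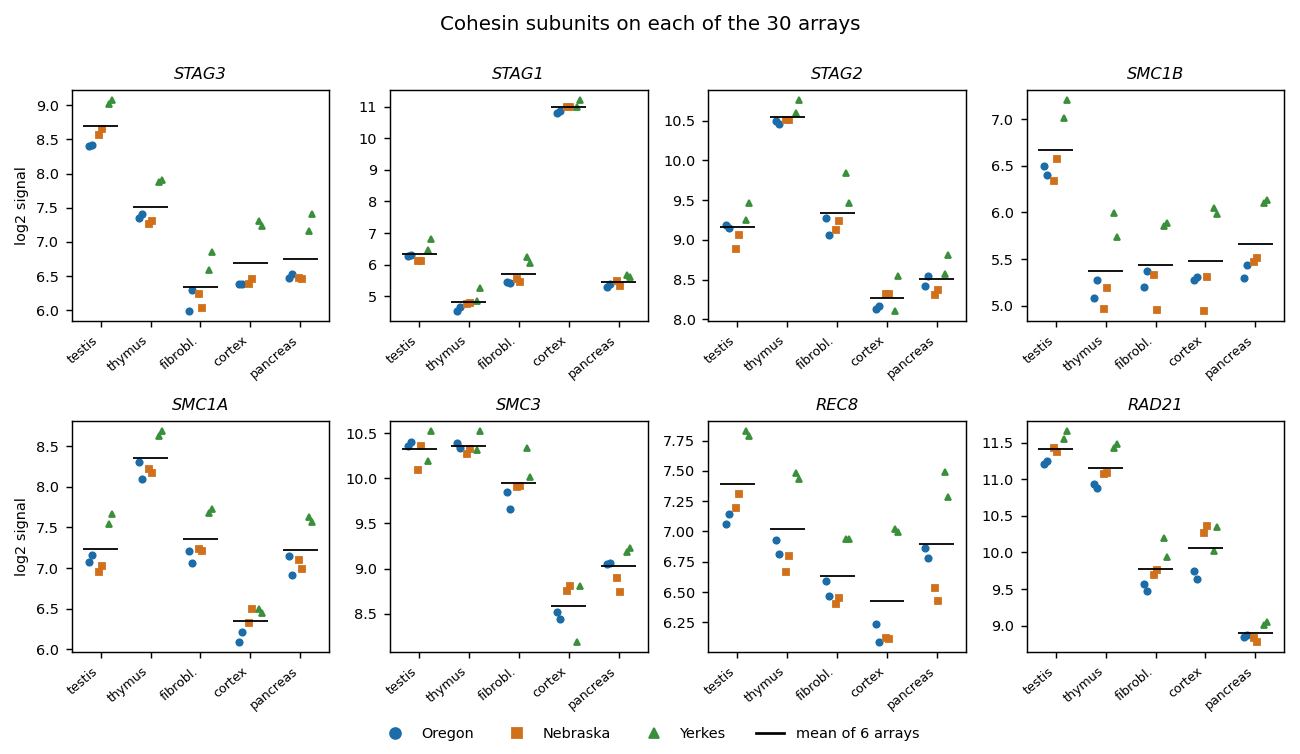
Log2 signal of cohesin and SMC genes on each of the 30 arrays (y axis) by tissue (x axis), with the center as color and shape and a line at the mean of 6 arrays. STAG1 stands near 11 only on the cerebral cortex arrays, while STAG2 is highest on the thymus arrays.

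Of 8 regulators of cohesin measured from a list of 15, 5 were higher in thymus and 1, MAU2, in testis, and SGO1 was lower in testis. PTTG1, the securin that holds back cohesin cleavage, averaged 11.42 in thymus and 10.74 in fibroblast and only 5.56 in pancreas. PDS5B, a cohesin-associated factor, averaged 9.17 in thymus and 8.52 in testis. NIPBL, the cohesin loader, averaged 10.48 in thymus and 10.12 in testis. WAPL, which releases cohesin, averaged 9.27 in thymus and 9.06 in testis.

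Most genes of homologous recombination and the Fanconi anemia pathway were higher in thymus. Of 8 recombination genes, 5 were higher in thymus (RAD51AP1, RAD54L, BRCA1, BRCA2 and RAD54B), 2 in fibroblast (RAD51B and RAD51C) and 1, XRCC3, in none. Of 7 Fanconi anemia genes, 6 were higher in thymus (FANCB, FANCE, FANCF, FANCG, FANCI and FANCM), by 0.18 to 1.12, and FANCL in testis. Of 4 helicases, BLM and RECQL4 were higher in thymus, WRN in testis and RECQL5 in none. The other RECQL4 probesets were highest in pancreas, and the dimmest was called higher there.

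RAD54L, a DNA translocase of homologous recombination, had signals of 7.83, 8.22 and 8.51 in thymus, against 6.54, 6.78 and 7.47 in fibroblast. The thymus arrays did not overlap with others. The difference was 1.26 (SE 0.08, 2.40-fold, adjusted p = 4.09e-15), with 1.65 for Oregon, 1.10 for Nebraska and 1.04 for Yerkes.

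BRCA1, a tumor suppressor that directs break repair to recombination, had signals of 7.21, 7.34 and 8.46 in thymus, against 6.43, 6.91 and 7.38 in fibroblast. The groups overlapped over all arrays and were separate within each center. The difference was 0.75 (SE 0.09, 1.68-fold, adjusted p = 2.47e-08), with 0.31 for Oregon, 0.59 for Nebraska and 0.97 for Yerkes. BRCA2, a tumor suppressor of the same pathway, averaged 5.84 in thymus and 4.93 in fibroblast (SD 0.30 and 0.38, n = 6 arrays each), with no overlap, and was below the array median on all 30 arrays. RAD51AP1, another gene of homologous recombination, averaged 8.38 in thymus and 7.69 in fibroblast, against 6.27 in testis, 5.05 in pancreas and 5.00 in cerebral cortex.

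RAD51B and RAD51C were highest in the cell line. RAD51C, a gene of homologous recombination, had signals of 7.31, 7.72 and 8.19 in fibroblast, against 6.88, 7.08 and 7.24 in thymus. The groups did not overlap and the difference was 0.69 (SE 0.11, 1.61-fold, adjusted p = 1.28e-06). RAD51C was called lower in pancreas, at a mean of 4.86, with a difference of -1.46 from cerebral cortex (SE 0.11, adjusted p = 1.22e-13). Its second probeset was higher in thymus, with means of 6.59 in thymus and 6.32 in fibroblast.

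RAD51B had signals of 6.12, 6.50 and 6.88 in fibroblast, against 5.80, 6.15 and 6.46 in thymus, in overlapping groups. The difference was 0.36 (SE 0.09, adjusted p = 0.00117). Its other 2 probesets were called higher in pancreas, and with all probesets of the gene averaged the sign turned to -0.17.

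FANCL, the ubiquitin ligase of the Fanconi anemia pathway, had signals of 8.31, 8.66 and 8.85 in testis, against 7.09, 7.30 and 7.53 in thymus. The testis arrays did not overlap with others, and the difference was 1.30 (SE 0.09, 2.46-fold, adjusted p = 3.78e-14). The other Fanconi anemia genes were lower in testis than in thymus. FANCI, a member of the complex that the ligase acts on, averaged 8.68 in thymus, against 7.56 in fibroblast, 7.23 in testis, 6.30 in pancreas and 5.88 in cerebral cortex. FANCM, a translocase, averaged 8.10 in thymus and 7.20 in testis (SD 0.13 and 0.20, n = 6 arrays each).

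WRN, the helicase mutated in Werner syndrome, had signals of 9.10, 9.35 and 9.60 in testis, against 7.41, 7.89 and 7.97 in thymus. No testis array overlapped with another tissue. The difference was 1.58 (SE 0.08, 2.98-fold, adjusted p = 3.56e-18). BLM, mutated in Bloom syndrome, averaged 8.84 in thymus and 7.99 in testis, also without overlap. RECQL5, a further helicase of the family, had signals of 6.98, 7.07 and 7.87 in thymus, against 6.97, 7.09 and 7.74 in testis. These groups overlapped, and its tissue means lay between 7.02 and 7.29.

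**Figure D5:**
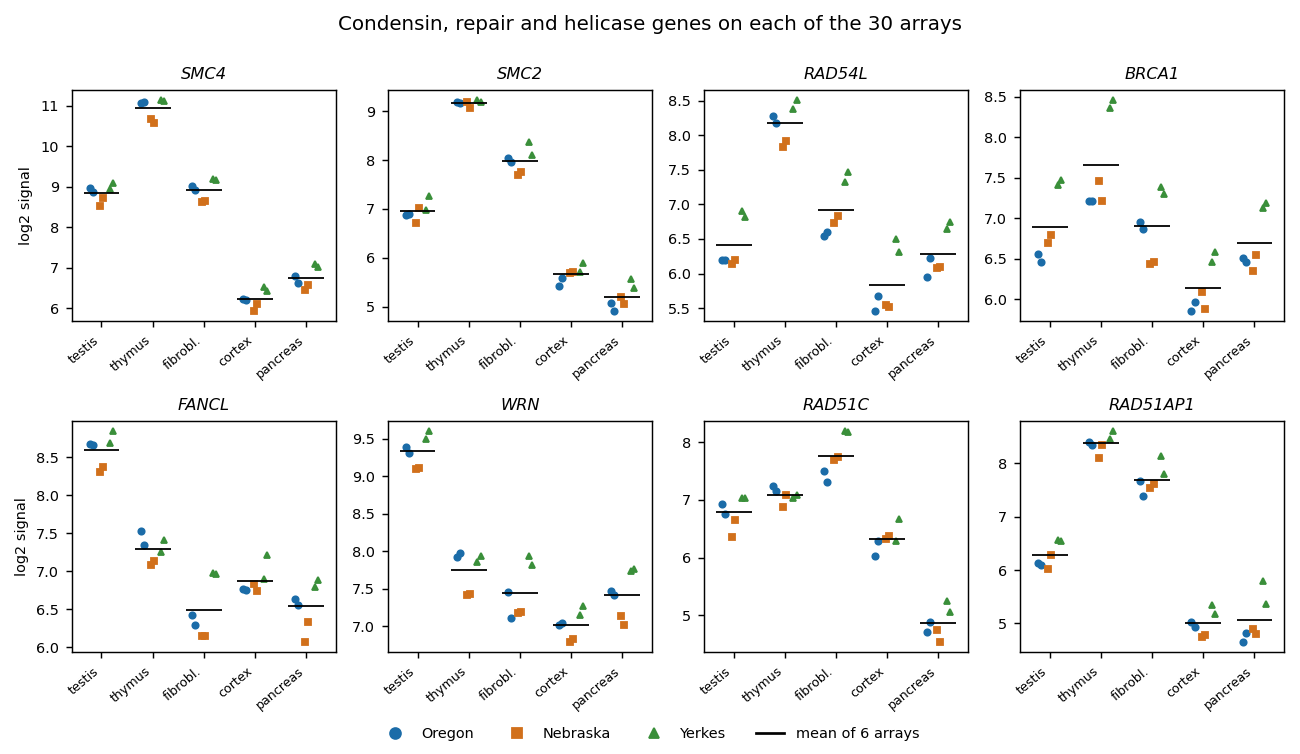
Log2 signal of condensin, recombination, Fanconi anemia and helicase genes on each of the 30 arrays (y axis) by tissue (x axis), with the center as color and shape and a line at the mean of 6 arrays. SMC4, SMC2 and RAD54L are highest in thymus, FANCL and WRN in testis and RAD51C in fibroblast, without overlap in each case.

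Genes of cell division were also mostly higher in thymus. Of 16 measured from a list of 24, 14 were higher in thymus and 10 were lower in cerebral cortex. Their summed linear signal was 15770 to 21380 on thymus arrays, 7339 to 10920 on fibroblast arrays, 3965 to 6133 on testis arrays, 1440 to 2256 on pancreas arrays and 1421 to 2135 on cerebral cortex arrays. TOP2A, a topoisomerase of dividing cells, averaged 11.49 in thymus and 9.69 in fibroblast, against 4.83 in cerebral cortex. Among members called higher in thymus, the next tissue was fibroblast for some, as for SMC4, and testis for others, as for FANCM. The part of cell division in the members' differences was not tested.

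Some genes were shared by a pair of tissues. Both fibroblast and thymus exceeded the other 3 tissues for 11 members (18.3%), against 7.71% of all genes: ERCC5, FANCI, RAD51AP1, RAD51B, RAD51C, RAD54B, RAD54L, RECQL4, SMC2, XRCC4 and XRCC5. Both testis and thymus did so for 15 members (25%), against 7.91% of all genes, among them 5 of the Fanconi anemia list. Pancreas and testis shared 5 (8.33%, against 3.84% of all genes), and each of the other pairs shared at most 2. The fibroblast and thymus pair held 5 of the 8 recombination genes and 1 of the 7 Fanconi anemia genes. These pairs rest on the brightest probeset of each gene. The other ERCC5 probesets did not share the pattern. The brightest of them was called higher in testis and lower in fibroblast, with means of 7.56 and 6.41.

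The members called lower in cerebral cortex came from most role lists. They held 5 of the 7 Fanconi anemia genes, 4 of the 8 recombination genes, 4 of the 9 cohesin and SMC genes, 2 of the 4 helicases and 2 of the 13 meiosis genes. SMC1A, the cohesin arm, had signals of 6.09, 6.38 and 6.50 in cerebral cortex, against 6.91, 7.13 and 7.63 in pancreas, the next lowest, and no cortex array overlapped with another tissue. The difference was -0.88 (SE 0.07, adjusted p = 2.15e-12), the largest of the 19 lower calls in cerebral cortex. FANCE, a subunit of the Fanconi anemia core complex, averaged 6.34 in cerebral cortex and 7.18 in fibroblast, with a difference of -0.84 (SE 0.07, adjusted p = 5e-13). None of the 19 differed from the next lowest tissue by 1 or more. The count was 5 in a model without the center term and 33 with the pancreas arrays left out. With pancreas left out the rule had fewer contrasts to pass. Shares over all genes are not given for these settings.

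Mismatch and nucleotide excision repair genes divided as follows. Of 3 mismatch repair genes, MSH6, which binds mismatches, averaged 9.77 in thymus and 9.28 in testis, PMS1 was higher in thymus by 0.16, and PMS2 was higher in none. Of 8 nucleotide excision repair genes, 2 were higher in thymus (ERCC3 and ERCC6), 1 in testis (ERCC4), 1 in fibroblast (ERCC1) and 4 in none. ERCC1, the partner of the ERCC4 nuclease, had signals of 8.47, 8.80 and 9.17 in fibroblast, against 8.49, 8.54 and 8.84 in pancreas. These groups overlapped. The difference was 0.19 (SE 0.06, adjusted p = 0.00836) and turned to -0.51 after quantile normalization of all 30 arrays. ERCC1 was also the only member called lower in testis, at a mean of 7.85, while ERCC4 was called higher there by 0.25. ERCC2, a helicase of the TFIIH complex, was higher in none and lower in thymus. ERCC8, a factor of transcription-coupled repair, had the smallest range of the members, followed by RECQL5. Its lowest, median and highest signals were 4.79, 5.00 and 5.89 in pancreas, against 4.89, 5.20 and 5.41 in thymus, which overlapped, and its tissue means lay between 4.93 and 5.18.

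Of 4 genes of end joining and single-strand repair, 1 was higher in thymus and 3 in no single tissue. XRCC5 and XRCC6 encode the Ku proteins that bind broken ends. XRCC5 averaged 11.58 in fibroblast and 11.54 in thymus, and XRCC6 11.89 in thymus and 11.82 in testis, with neither difference passing the test. XRCC6 was called lower in pancreas, at a mean of 9.85, with a difference of -1.31 from the next lowest tissue. LIG3, a ligase of single-strand repair, was higher in thymus by 0.38, and XRCC4 was higher in none. Of the 4 checkpoint genes, RAD9A, RAD9B and RAD17 were higher in testis and RAD1 in thymus, although RAD9A and RAD1 belong to the same clamp around damaged DNA. RAD9A had signals of 7.43, 7.48 and 7.89 in testis, against 6.90, 7.06 and 7.61 in thymus, which overlapped. The difference was 0.39 (SE 0.08, adjusted p = 0.000141), and the second RAD9A probeset was called higher in pancreas.

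The centers ranked the tissues alike for most members. The highest tissue was the same at all 3 centers for 45 of 60 members. Among called members this held for 43 of 45, all but ERCC1 and PMS1, and among the 15 uncalled for 2. Within a center, the called tissue's arrays stood above all others at all 3 centers for 38 of the 45 called members. The calls rest on these same arrays, so agreement between centers among called members is not independent of the rule. Shares over all genes are not given for these counts. The size of tissue differences varied between centers for 21 members (35%) by the interaction test, near the 33.4% of all genes. Of 30 members with more than 1 probeset, 16 had all their probesets highest in the same tissue. Of the 21 called among these, 13 had all probesets highest in the called tissue and for 10 every probeset was called there.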

How the data were processed

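Values were the log2 signals deposited by the authors for 30 arrays. Per the study's methods, probe intensities were background corrected with the MAS procedure, quantile normalized within each center and summarized over all arrays by RMA, which the submitters' processing notes also name. Separate normalization leaves a shift between centers, and summarized values keep neither probe intensities nor detection calls. No further normalization was applied.

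Of 52865 probesets, 99 array controls were left out. The other 52766 were fitted with limma 3.58.1 (R 4.3.3), with tissue and center as terms, and p-values were adjusted by Benjamini-Hochberg in each of the 10 tissue contrasts. An adjusted p under 0.05 was the threshold. Symbols came from the platform annotation of 25330 probesets, and all 60 member symbols matched RefSeq. The number of arrays limits the precision. The model was tested on simulated data before use.

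Members, role lists and marker lists were chosen with earlier results of these data known. Signals by array are given for the meiosis genes, for up to 4 members per tissue with the largest called differences, for the 2 members with the largest and the 2 with the smallest ranges, and for the 2 with the smallest interaction p. Other members are covered by counts and selected means. From other gene lists, up to 4 genes with the largest ranges are named, beside genes that stand apart in a list. XRCC5, XRCC6, SMC and RAD genes outside this rule were named after their values were seen. Alternatives were another normalization, other models, other choices of probesets and leaving out centers, aliquots or tissues. Probe and promoter sequences were not used here.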

Additional observations from a re-analysis of the deposited data

Results flagged for a closer look

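Each of the 5 tissue groups of 6 arrays was examined for each of the 60 members, which gave 300 groups, and 8 held an array set apart from the rest. The cutoff sets apart about 1 in 20 groups of 6 independent values of one normal distribution. These groups mixed arrays of centers with shifted levels, so the 8 could not be judged against that rate. FANCL in cerebral cortex read 7.21 on the second Yerkes array (other arrays 6.741 to 6.903), and RAD17 read 7.401 on the same array (others 7.005 to 7.110). The second Yerkes arrays also read 5.28 for MSH4 in fibroblast (others 4.33 to 4.59) and 9.15 for XRCC5 in pancreas (others 8.90 to 8.98). Low values came from Nebraska: SMC2 at 9.06 in thymus (others 9.18 to 9.23), SYCP1 at 4.94 in testis (others 5.52 to 5.86), SYCP3 at 4.54 in thymus (others 5.11 to 5.28) and XRCC6 at 11.15 in testis (others 11.84 to 12.13). The SYCP1 array still lay above every array of the other tissues.

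Tissue differences of 11 of the genes described by array differed in size between centers, by the interaction test with Benjamini-Hochberg adjustment in limma. Over all members the share was 35%, near the 33.4% of all genes. RAD9A and BRCA1 were described by array because their interaction p was the smallest. The adjusted p was 0.00168 for RAD9A, 0.00176 for BRCA1, 0.00585 for RAD51B, 0.00875 for MEI1, 0.00933 for ERCC8, 0.01 for FANCL, 0.0119 for RAD51C, 0.0215 for REC8, 0.026 for WRN, 0.0274 for RAD54L and 0.0344 for RECQL5. For RAD51C, fibroblast exceeded the highest other tissue by 0.20 at Oregon, 0.74 at Nebraska and 1.12 at Yerkes. For FANCL the testis excess was 1.23, 1.23 and 1.44, and for WRN 1.40, 1.68 and 1.65. ERCC8 and RECQL5 had no called tissue. Arrays of a center were normalized together, so the center's labeling and its normalization cannot be told apart.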

How the results depend on the processing

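The thymus and testis counts of 23 and 16 members were unchanged with a replicate block for the aliquot number, with a fit on tissue by center means and with a variance trend. Aliquot numbers shared only a number: their deviations correlated at a median of 0.00 over 105 pairs of tissue and center. Shares over all genes are not given for the refitted models below, so a changed member count has no background beside it. Without the center term the counts were 16 in thymus, 8 in testis, 1 in fibroblast and 0 in pancreas, and 5 lower in cerebral cortex, 5 shared by fibroblast and thymus and 8 by testis and thymus. With a difference of at least 1 required, they were 5, 5, 0 and 0, and 0 were lower in cerebral cortex and 2 in pancreas. After quantile normalization of all 30 arrays, fibroblast had 2, pancreas 2 and the interaction 13, against 21. Over all 52766 probesets, the median difference of pancreas was 0.19 from testis and 0.20 from thymus, and 0.11 from each after that step. Over the 14132 genes, before that step, it was 0.008 from testis and 0.155 from thymus. Fibroblast had 2 with aliquots averaged and 2 with all probesets of a gene averaged, where pancreas had 2. With only the probesets above the median of mean signal, those of 44 members among them, pancreas had 0.

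Without the pancreas arrays, cerebral cortex had 2 higher and 33 lower. Without the thymus arrays, a choice made after seeing the data, testis had 25 and fibroblast 13. With a tissue left out the rule had fewer contrasts to pass, and shares over all genes are not given for these fits. Leaving out a center or an aliquot number gave 19 to 22 in thymus, 11 to 16 in testis, 1 to 5 in fibroblast, 10 to 18 lower in cerebral cortex, 7 to 11 lower in pancreas, 6 to 10 for fibroblast and thymus, 7 to 14 for testis and thymus, and 3 (without Oregon) to 14 for the interaction. The sign turned for ERCC1 (-0.51 after quantile normalization of all arrays) and RAD51B (-0.17 with probesets averaged). Of the 21 called genes described by array, 13 kept the call without the center term and 18 after quantile normalization. MEI1, MLH3, SPO11, REC8, RAD9A, RAD51B, ERCC1 and HORMAD2 lost it without the center term. The causes were not tested.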

Other observations

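Repair pathways outside the chosen families had mixed patterns. Of 12 base excision repair genes measured from a list of 17, 3 were higher in thymus, 2 in fibroblast and 1 in testis. Over all genes, 12.6% were higher in thymus, 16.7% in fibroblast and 9.71% in testis, so the fibroblast and testis counts were near those shares. NEIL3, a glycosylase of replicating cells, averaged 7.83 in thymus and 7.36 in fibroblast, against 6.12 in testis (SD 0.19, 0.25 and 0.23, n = 6 arrays each). UNG, the uracil glycosylase, averaged 8.65 in testis and 8.29 in thymus. MBD4, a thymine glycosylase, averaged 7.79 in thymus and 7.55 in testis, and NTHL1 7.95 in fibroblast and 7.24 in pancreas. Of 13 partners of the damage checkpoint measured from a list of 20, 5 were higher in thymus, 4 in fibroblast and 1 in testis. CHEK2, a checkpoint kinase, averaged 8.85 in fibroblast and 7.26 in thymus, and RPA3, of the single-strand binding protein, 10.87 in thymus and 9.68 in fibroblast. RBBP8, which starts end resection, averaged 7.80 in testis and 7.34 in thymus, and BARD1, the partner of BRCA1, averaged 8.49 in thymus and 7.79 in testis.

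Of 5 genes of V(D)J recombination measured from a list of 6, 3 were higher in thymus. RAG2, of the recombinase, averaged 10.12 in thymus and 5.90 in testis, and DNTT, which adds bases at the joints, 10.95 in thymus and 6.71 in testis. Both also belong to the thymocyte list. PRKDC, the kinase that acts with the Ku proteins, was higher in thymus by 0.40 (SE 0.08), at 10.21 in thymus and 9.81 in fibroblast. DCLRE1C, the nuclease that opens the hairpins, was called higher in cerebral cortex and lower in thymus, with means of 8.32 in cerebral cortex, 7.69 in fibroblast and 6.41 in thymus.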
